A study of Homo sapiens with 10 samples.

Results

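The aminoacyl-tRNA synthetase genes were taken as the protein-coding genes whose symbol is a letter followed by ARS1 or ARS2, together with EPRS1, FARSA and FARSB, on chromosomes 1 to 22 of the GENCODE annotation of hg19. This rule gave 37 genes of 19222 coding genes, 20 named as cytosolic (ending in 1, EPRS1, FARSA and FARSB) and 17 named as mitochondrial (ending in 2). They were described in 5 lists of ChIP-seq peaks from HCT116, a cell line established from a human colorectal carcinoma, grown in standard medium with serum and given no treatment that the labels name. The lists came from antibodies to RNA polymerase II (Pol II), KAP1, Larp7, Hexim1 and Cdk9. Every antibody had 1 library from the same cell line, so no value below has a replicate, and no difference between genes was tested. The labels call the cells endothelial, whereas the line is of epithelial origin, and the lists were compared with markers of both. Pol II lay at the 5′ end of 9 of 12 colon epithelium markers and of 4 of 11 matched endothelium markers. Over all coding genes the share with Pol II was 71.8%, close to that of the colon markers and above that of the endothelium markers. KAP1 and Cdk9 were each at 7 colon and 6 endothelium markers, and Larp7 and Hexim1 each at 11 and 7. The origin of the cells was not tested. The epithelial markers without Pol II at the 5′ end were CDH17, KRT20 and VIL1, and the endothelial ones were CDH5, EMCN, KDR, ROBO4, TEK, TIE1 and VWF.

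Aminoacyl-tRNA synthetases attach each amino acid to its tRNA, the step that sets the genetic code in every translating compartment. The cytosol and the mitochondrion use separate enzymes for most amino acids, all of them encoded in the nucleus. Several cytosolic enzymes sit together in the multisynthetase complex, and many of their genes are known targets of ATF4, the transcription factor of the amino acid response. Of the proteins mapped here, Larp7 and Hexim1 are parts of the 7SK small nuclear ribonucleoprotein, in which the elongation kinase P-TEFb is kept inactive. Cdk9 is the kinase subunit of P-TEFb and helps paused Pol II to move into the gene, and KAP1 (TRIM28) is a chromatin-bound co-regulator. The study asked how KAP1 and the 7SK ribonucleoprotein meet Pol II at promoters.

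Promoter sequence differed between the classes of enzyme. The motif TGATGNAA, searched on both strands and known as the core of the element read by ATF4, was found between 250 bases before and 50 bases after the canonical transcript's start in 8 of 20 cytosolic genes (40.0%) and in 1 of 17 mitochondrial genes (5.88%). The canonical start, the annotation's principal transcript, was brought in after the peaks at the annotated ends had been seen. The same window held the motif in 477 of 19222 coding genes (2.48%). At the annotated 5′ end, the outermost base of any transcript of a gene, the motif was found in AARS1 and YARS2 alone among the members, against 2.71% of coding genes. The stretches below show where the motif lay, each 90 bases of GRCh37 (the same sequence build as hg19) on the gene's own strand, with the motif in capitals on whichever strand it matched (TTNCATCA is its reverse complement). The first 7 run from 60 bases before the canonical start to 29 bases past its first base, and those of AARS1 and YARS2 run from 220 to 131 bases before it.
CARS1, chr11:3078624-3078713, minus strand: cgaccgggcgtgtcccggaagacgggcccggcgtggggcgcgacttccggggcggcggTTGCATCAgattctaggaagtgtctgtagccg
GARS1, chr7:30634434-30634523, plus strand: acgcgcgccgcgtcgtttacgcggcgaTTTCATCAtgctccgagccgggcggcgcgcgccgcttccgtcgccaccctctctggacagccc
IARS1, chr9:95055950-95056039, minus strand: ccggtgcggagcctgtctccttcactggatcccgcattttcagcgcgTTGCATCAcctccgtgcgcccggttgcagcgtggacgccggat
MARS1, chr12:57881791-57881880, plus strand: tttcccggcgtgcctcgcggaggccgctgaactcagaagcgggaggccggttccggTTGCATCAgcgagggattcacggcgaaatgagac
NARS1, chr18:55289039-55289128, minus strand: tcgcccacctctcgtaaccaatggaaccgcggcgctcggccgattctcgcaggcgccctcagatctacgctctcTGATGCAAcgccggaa
TARS1, chr5:33441011-33441100, plus strand: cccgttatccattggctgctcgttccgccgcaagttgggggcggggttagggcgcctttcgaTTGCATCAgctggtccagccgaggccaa
YARS1, chr1:33282930-33283019, minus strand: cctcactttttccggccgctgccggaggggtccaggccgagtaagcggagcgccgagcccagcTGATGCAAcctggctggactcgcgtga
AARS1, chr16:70323540-70323629, minus strand: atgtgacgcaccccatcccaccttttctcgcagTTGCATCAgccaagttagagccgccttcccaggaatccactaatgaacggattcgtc
YARS2, chr12:32908962-32909051, minus strand: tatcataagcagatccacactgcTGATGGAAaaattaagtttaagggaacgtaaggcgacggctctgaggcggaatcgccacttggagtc
In 7 of the 8 cytosolic stretches the match was TGATGCAA on one strand or the other, while GARS1 had TGATGAAA and the mitochondrial YARS2 had TGATGGAA. The motif's first base lay 2 bp before the start in CARS1, 4 bp before it in MARS1, 13 bp before it in IARS1 and 33 bp before it in GARS1. It lay 2 bp past the start in TARS1, 3 bp past it in YARS1 and 14 bp past it in NARS1. The matches of AARS1 and YARS2 stood apart, at 187 bp and 197 bp before the canonical start. For AARS1 this depends on the start used, since its canonical start lies 201 bp inside its annotated 5′ end. No match overlapped another motif searched in these windows. A match describes the letters only and says nothing of whether ATF4 was bound.

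At the annotated 5′ end, most synthetase genes held a peak of every antibody within 1 kb on either side. Pol II was listed at 35 of 37 genes (94.6%, exact 95% interval 81.8 to 99.3), against 71.8% of all coding genes. KAP1 was listed at 30 (81.1%, against 66.2%), Larp7 at 34 (91.9%, against 76.4%), Hexim1 at 36 (97.3%, against 79.9%) and Cdk9 at 32 (86.5%, against 70.5%). All 5 were present at 28 genes (75.7%, interval 58.8 to 88.2), against 61.5% of coding genes, and none of the 5 at 1 gene, GARS1, against 17.2%. The binomial intervals are exact (Clopper-Pearson) and cover counting error only.

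Read against coding genes that had Pol II, the synthetase genes were close to the background. Of the 35 with Pol II, 30 had KAP1 (85.7%, background 88.1%), 34 had Larp7 (97.1%, background 95.4%), 35 had Hexim1 (background 98.6%) and 32 had Cdk9 (91.4%, background 91.5%). All 5 were found at 28 of these 35 (80.0%, interval 63.1 to 91.6), and the background share of 85.6% lay within that interval. The background shares of KAP1, Larp7, Hexim1 and Cdk9 at genes with Pol II likewise lay within the exact intervals of the members.

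The classes' shares with all 5 factors lay within each other's intervals. All 5 factors were found at 16 of 20 cytosolic genes (80.0%, interval 56.3 to 94.3) and at 12 of 17 mitochondrial genes (70.6%, interval 44 to 89.7). Pol II was at 19 cytosolic and 16 mitochondrial genes, KAP1 at 17 and 13, Larp7 at 19 and 15, Hexim1 at 19 and 17, and Cdk9 at 18 and 14.

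**Figure D1:**
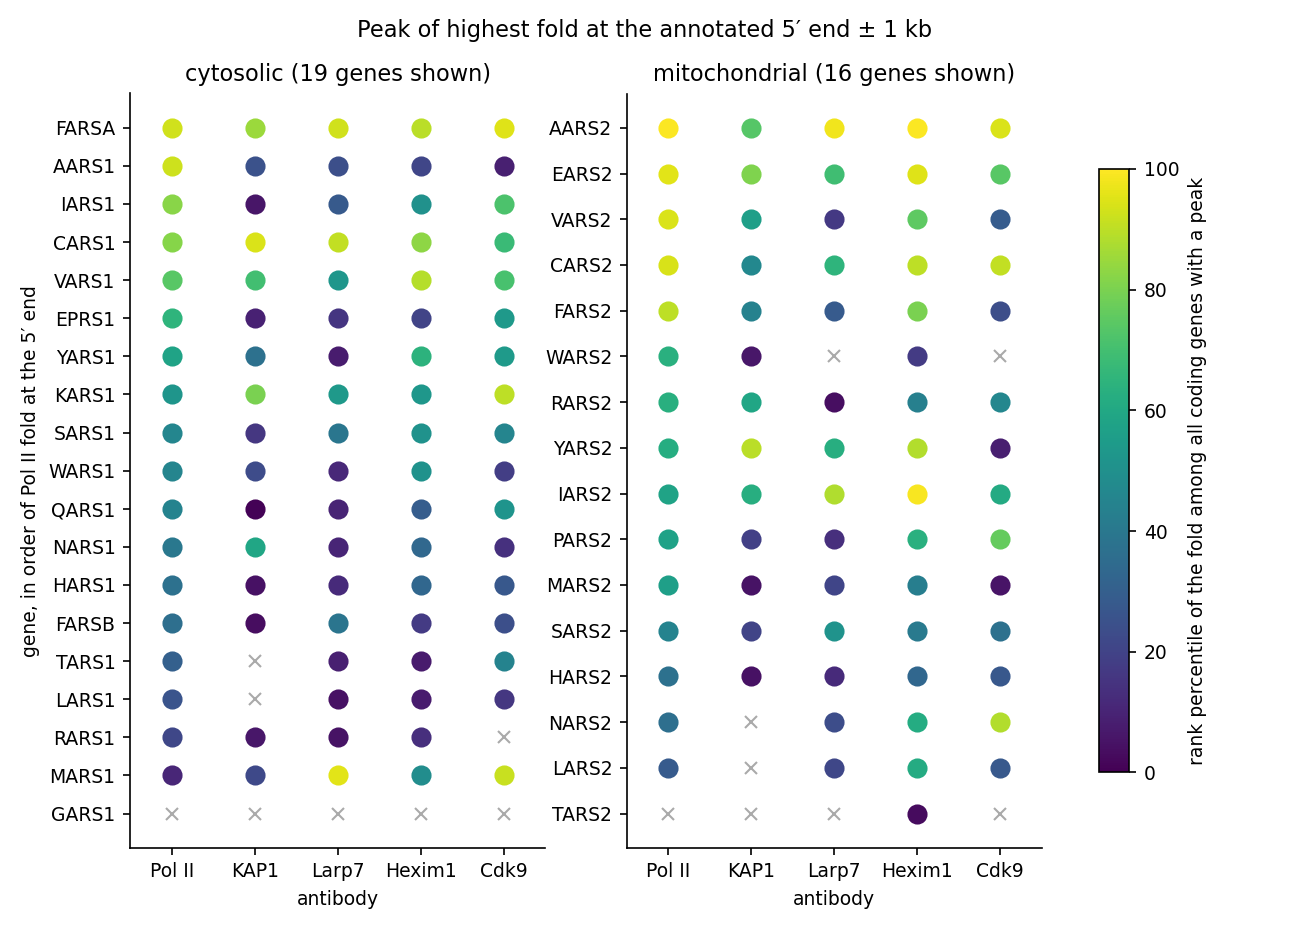
Each row is a synthetase gene (19 cytosolic and 16 mitochondrial shown), in order of Pol II fold, and each column an antibody. A dot marks a peak within 1 kb of the annotated 5′ end, coloured by the rank percentile of its fold among all coding genes with a peak of that antibody, and a cross marks no peak. Crosses gather in the KAP1 and Cdk9 columns and in the rows of GARS1 and TARS2.

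The height of a peak is given below as the authors' deposited fold enrichment, a linear ratio over the local background, and is compared only within a list. The rank percentile places a gene's highest peak at the 5′ end among all coding genes that have a peak of the same antibody there. Of the multisynthetase complex, EPRS1, IARS1, KARS1, LARS1, MARS1, QARS1 and RARS1 (a grouping made after values were seen) spanned Pol II folds of 6.33 to 82.2. IARS1 (chr9:94972489-95056136), which charges isoleucine tRNA, had the highest of them at 82.2 (percentile 82.4). EPRS1 (chr1:220141942-220219872), the fused enzyme for glutamate and proline, had a Pol II fold of 56.8 (65.0). Both genes stood above the middle in Pol II and low in KAP1, at percentiles of 5.57 and 9.18.

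KARS1 (chr16:75661372-75682541), which supplies lysine tRNA charging to cytosol and mitochondrion alike, differed from IARS1 and EPRS1 in this. It had folds of 41.9 in Pol II, 5.76 in KAP1, 4.92 in Larp7, 7.16 in Hexim1 and 5.96 in Cdk9, and its KAP1 percentile was 79.9. QARS1, for glutamine, had a Pol II fold of 34.0 and the lowest KAP1 fold of any member with a peak, 3.07 (percentile 0.483). LARS1, for leucine, had a Pol II fold of 14.2 and no KAP1 peak, and RARS1, for arginine, had a Pol II fold of 10.0 and no Cdk9 peak.

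Among the cytosolic enzymes outside the complex, FARSA and AARS1 led in Pol II, both with a fold of 106. FARSA (chr19:13033293-13044851), the catalytic subunit of the phenylalanine enzyme, was high in every list, with a KAP1 fold of 6.0, a Larp7 fold of 6.39, a Hexim1 fold of 10.1 and a Cdk9 fold of 6.42. AARS1 (chr16:70285886-70323610), for alanine, was high in Pol II only: its folds were 4.22 in KAP1, 4.07 in Larp7, 5.22 in Hexim1 and 3.38 in Cdk9, none above percentile 25.0. CARS1 (chr11:3022152-3078843), for cysteine, had a Pol II fold of 81.1 and the highest KAP1 fold of all members, 6.74 (percentile 94.2). FARSB, the partner subunit of FARSA, had a Pol II fold of 24.8 and a KAP1 fold of 3.38, so the subunits of this enzyme did not share a rank. VARS1 (chr6:31745295-31763529), for valine, followed with a Pol II fold of 69.0, and YARS1 (tyrosine), SARS1 (serine), WARS1 (tryptophan), NARS1 (asparagine), HARS1 (histidine) and TARS1 (threonine) lay between 18.8 and 49.2.

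The mitochondrial genes held the highest Pol II folds. AARS2 (chr6:44266468-44281084), for alanine, had a fold of 155 (percentile 99.6) and was near the top of the other lists too, with 7.12 for Larp7 (98.0), 14.3 for Hexim1 (99.6) and 6.30 for Cdk9 (94.2), though its KAP1 fold of 5.51 stood at 73.7. EARS2 (chr16:23532075-23569052), which charges glutamate and, in mitochondria, also feeds the indirect route to glutamine tRNA, had a Pol II fold of 117 and a KAP1 fold of 5.80. VARS2, for valine, reached 111 and CARS2, for cysteine, 109. LARS2, for leucine, was far lower at 16.6. YARS2, for tyrosine, had a Pol II fold of 53.7 and the second-highest KAP1 fold of the family, 6.30. IARS2, for isoleucine, ranked at 99.2 in Hexim1 with a fold of 13.8, while its Pol II fold of 49.2 ranked at 58.0. FARS2, WARS2, RARS2, PARS2, MARS2, SARS2, HARS2 and NARS2 lay between 24.7 and 99.4.

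In medians, the family was near the middle of the coding genes in Pol II, Hexim1 and Cdk9 and lower in KAP1 and Larp7. The median percentile was 57.8 for Pol II, 49.4 for Hexim1 and 45.9 for Cdk9, against 23.9 for KAP1 and 22.3 for Larp7. The KAP1 value has a wide interval (9.18 to 59.1) and varied with the setting: it was 36.5 at the canonical start, and 50.1 over the 7 genes with a KAP1 peak of −log10 q of at least 5. The Larp7 median at the canonical start was 20.2. Cytosolic genes had a median of 45.8 in Pol II and mitochondrial genes 60.1. At the canonical start these medians were 54.0 and 59.0, so the gap of -14.2 points between the classes (interval -49.2 to 25.4) shrank to -4.95. The KAP1 median was 22 in cytosolic and 46.6 in mitochondrial genes, and the Hexim1 median 33.4 and 61.4. Set against coding genes in the same quintile of Pol II fold, 21 of 30 genes lay below the KAP1 median of their quintile, with a median difference of -25.8 percentile points. For Larp7 it was 23 of 34 genes, with -31.6 points. For Hexim1 (21 of 35, -7.27 points) and Cdk9 (20 of 32, -6.53 points) the shift was smaller. The classes parted in Hexim1, with -8.57 points in cytosolic genes (14 of 19 below) and 3.79 points in mitochondrial genes (9 of 16 above). For KAP1, Larp7 and Cdk9 the median difference was below the quintile in both classes.

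Few genes lacked a factor. Those without KAP1 included GARS1, LARS1, LARS2, NARS2, TARS1 and TARS2, and those without Cdk9 included GARS1, RARS1, TARS2 and WARS2. Larp7 was missing at GARS1, TARS2 and WARS2, Pol II at GARS1 and TARS2, and Hexim1 at GARS1 alone. NARS2, the mitochondrial asparagine enzyme, kept a Pol II fold of 24.7 and a Cdk9 fold of 5.87 (percentile 88.5) without KAP1, and LARS2 kept a Cdk9 fold of 4.06. TARS1 had folds of 18.8 for Pol II, 3.38 for Larp7, 3.74 for Hexim1 and 4.47 for Cdk9, and its nearest KAP1 peak was 61231 bp downstream. WARS2 (chr1:119573839-119683277), the mitochondrial tryptophan enzyme, showed the reverse of that pattern for KAP1: it had a Pol II fold of 54.9 and a KAP1 fold of 3.54 but no Larp7 or Cdk9 peak in the window.

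At GARS1 the absence held for the annotated end alone. GARS1, which charges glycine tRNA in both compartments, spans chr7:30620149-30673649 on the plus strand, and its canonical transcript starts 14345 bp inside that span. At this start all 5 factors were listed, with folds of 64.7 in Pol II, 5.12 in KAP1, 3.65 in Larp7, 9.95 in Hexim1 and 5.03 in Cdk9. MARS1 (chr12:57869228-57911352), for methionine, had all 5 factors at both starts. Its Pol II fold was 6.33 at the annotated end and 57.0 at the canonical start 12623 bp inside, and the KAP1 folds were 4.14 and 5.17. The other folds were lower at the canonical start, at 4.11 against 6.70 in Larp7, 4.36 against 6.90 in Hexim1 and 4.41 against 6.06 in Cdk9. The canonical starts of CARS2 and WARS1 also lay more than 1 kb inside, by 7487 bp and 1458 bp, and both kept all 5 factors there.

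TARS2, the mitochondrial threonine enzyme at chr1:150459890-150480078, was the member without Pol II at either start. Its only listed factor was Hexim1, with a fold of 3.15 in a peak of 1747 bp that ended before the gene, and its nearest Pol II peak lay 8200 bp upstream with a fold of 5.23. Counted at canonical starts, Pol II was at 36 of 37 genes (background 74.8%), KAP1 at 31 (69.5%), Larp7 at 35 (78.8%), Hexim1 at 37 (81.9%) and Cdk9 at 33 (73.3%). All 5 were at 29 genes, against 64.9% of coding genes. 

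At 500 and 750 bp past the annotated 5′ end, peaks of every antibody covered a larger share of the cytosolic genes, a difference that was not tested. At 500 bp past the annotated 5′ end, Larp7 peaks covered 16 of 20 cytosolic genes (80.0%) and 4 of 17 mitochondrial genes (23.5%), against 64.7% of other coding genes with Pol II. Hexim1 covered 18 and 7 genes there (other genes 72.1%), and Cdk9 13 and 4 (other genes 56.0%). Pol II covered 12 and 7 genes at this point (other genes 55.8%) and KAP1 10 and 5 (52.4%). At 750 bp Pol II covered 9 cytosolic and 2 mitochondrial genes, and KAP1 likewise 9 and 2. At the 5′ base itself the order was not the same: Pol II covered 14 cytosolic genes (70.0%) and 15 mitochondrial genes (88.2%), and Larp7 12 and 11. Canonical starts lie inside the annotated end by up to 978 bp in the cytosolic genes other than GARS1, MARS1 and WARS1. In EPRS1, FARSB, LARS1, RARS1, SARS1 and VARS1 this offset is 46 bp or less. In the mitochondrial genes it is 41 bp or less, except in CARS2 (7487 bp), FARS2 (469 bp), EARS2 (381 bp) and NARS2 (330 bp). The offset thus differs between the classes, and its part in the difference was not tested.

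**Figure D2:**
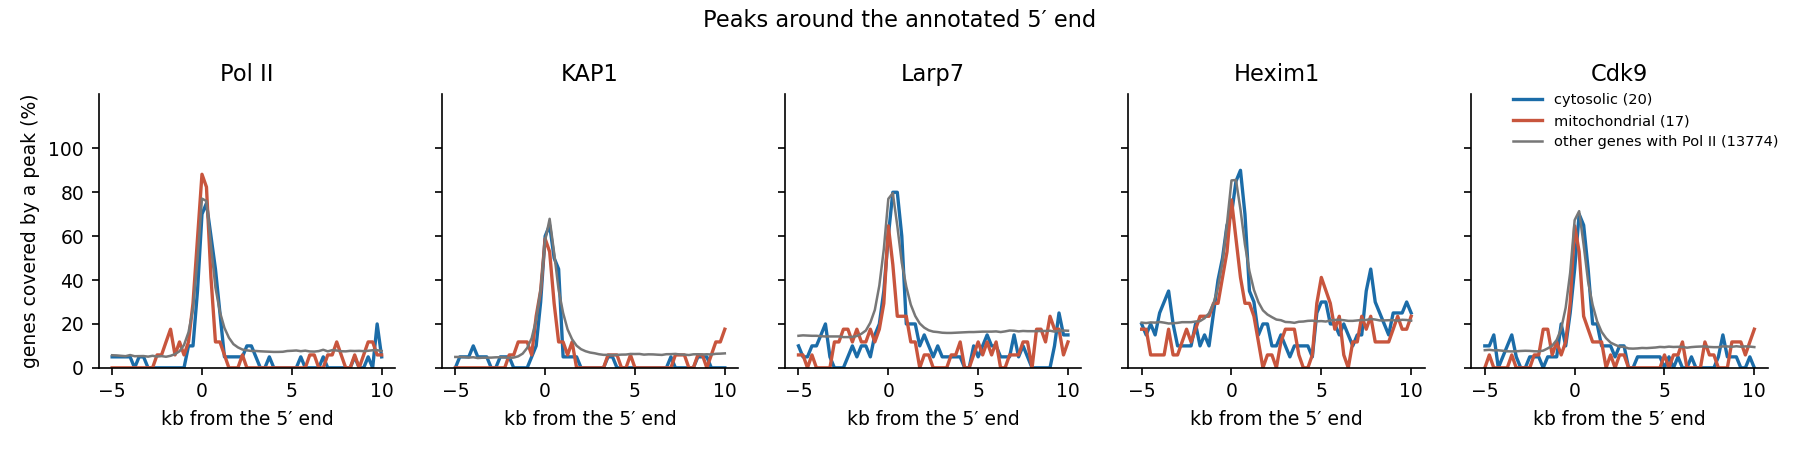
Share of genes (vertical axis, percent) that a peak covers at each distance from the annotated 5′ end (horizontal axis, kb, negative upstream), for 20 cytosolic genes, 17 mitochondrial genes and 13774 other coding genes with Pol II. At 500 bp downstream the Larp7 line of the cytosolic genes stands at 80.0% and that of the mitochondrial genes at 23.5%.

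Occupancy under stricter lists depended on the antibody. With peaks of −log10 q of at least 5, Pol II stayed listed at 35 genes (background 69.2%) and Hexim1 at 32 (69.3%). KAP1 then counted 7 genes (25.5%), Larp7 11 (49.3%) and Cdk9 6 (15.5%), and all 5 factors remained at 3 genes, AARS2, FARSA and KARS1 (9.59%). When every list was cut to its 20000 peaks of greatest −log10 p, Pol II was at 33 genes (55.0%), KAP1 at 14 (43.0%), Larp7 at 9 (32.1%), Hexim1 at 27 (54.9%) and Cdk9 at 18 (42.0%). All 5 were then at 6 genes (16.9%): AARS2, CARS1, CARS2, EARS2, FARSA and IARS2. The synthetases were above the background in Pol II and Hexim1 at each of these settings, below it in KAP1 and Larp7, and close to it for all 5 together.

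Shared promoters were common among these genes. The 5′ end of another coding gene on the opposite strand lay within 1 kb in 11 members (29.7%), against 13.5% of coding genes. By class it was 7 of 17 mitochondrial genes (41.2%) and 4 of 20 cytosolic genes (20.0%). Among them were AARS1 with DDX19B at 44 bp, CARS2 with ING1 at 867 bp, EARS2 with UBFD1 at 10 bp, FARS2 with LYRM4 at 94 bp, KARS1 with TERF2IP at 870 bp, RARS2 with ORC3 at 39 bp, SARS2 with MRPS12 at 181 bp, WARS1 with WDR25 at 387 bp, and HARS1 with HARS2. A peak in such a window cannot be given to either gene, which touches the high Pol II folds of AARS1, EARS2 and CARS2. All 5 factors were at 10 of these 11 and at 18 of the other 26 members, and the corresponding shares over all coding genes were 77.6% and 59.0%.

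HARS1 and HARS2, the cytosolic and mitochondrial histidine enzymes, start 107 bp apart with overlapping 5′ ends and use the same peaks. Their canonical transcripts point away from each other and do not overlap. The 84 bases between both canonical starts, given here on the plus strand of GRCh37 because every peak of the pair covers them, hold the ETS-type motif CCGGAAGT near each end, once on each strand, in capitals.
HARS1/HARS2, chr5:140070956-140071039, plus strand: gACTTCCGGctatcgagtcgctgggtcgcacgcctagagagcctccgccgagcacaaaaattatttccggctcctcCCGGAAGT
The 5 peaks over it had folds of 25.4 in Pol II, 3.45 in KAP1, 3.53 in Larp7, 6.05 in Hexim1 and 4.05 in Cdk9. The Pol II peak spanned chr5:140070684-140071427, wider than the stretch on both sides. The motif CCGGAAGT was in the canonical windows of 6 members (16.2%), against 6.22% of coding genes, and HARS1 and HARS2 count the same stretch in both of theirs. At the annotated 5′ end it was in 3 members (8.11%, against 5.13%).

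The gene body was everything beyond the first 2 kb, and was counted where the gene was 4 kb or longer. Pol II was found there in 29 of 36 members (80.6%, interval 64.0 to 91.8). The background was 63.5% of coding genes and 69.7% of those with Pol II at the 5′ end. KAP1 was in 17 bodies (47.2%, background 58.2%), Larp7 in 35 (97.2%, background 86.5%), Hexim1 in 34 (94.4%, background 89.8%) and Cdk9 in 31 (86.1%, background 77.8%). On the full lists KAP1 alone was below its background in the body, and its interval of 30.4 to 64.5 includes that background. This order depended on the lists. With peaks of −log10 q of at least 5, Pol II was at 63.9% against 56.0% of coding genes, while KAP1 (8.33% against 15.6%), Larp7 (41.7% against 46.5%), Hexim1 (47.2% against 55.0%) and Cdk9 (5.56% against 10.7%) were all below. With the 20000 strongest peaks of each list Pol II was below as well, at 22.2% against 27.6%. MARS2, the methionine enzyme of mitochondria, was too short to count at 3.03 kb.

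Over all lengths, Pol II peaks covered more of the cytosolic bodies. It was listed in 17 of 20 of them (85.0%, interval 62.1 to 96.8) and in 12 of 16 mitochondrial ones (75%, interval 47.6 to 92.7). The median number of Pol II peaks was 3.0 and 1.0, and the median share of the body covered was 2.48% and 0.527%, against 0.632% of coding genes. Peaks covered 3.79% of the summed cytosolic body length and 0.963% of the mitochondrial. The mitochondrial class includes 4 genes over 100 kb and the cytosolic class none. Among genes of 20 to 50 kb, Pol II was in 9 of 9 cytosolic bodies with a median cover of 2.21%, in 3 of 4 mitochondrial bodies with 1.06%, and in 68.3% of other Pol II genes with 1.61%. From 50 to 100 kb the order was turned: Pol II was in 5 of 7 cytosolic bodies with 1.12% and in 3 of 3 mitochondrial bodies with 1.44%. In genes of 4 to 20 kb it was in 3 of 4 with 12.1% and in 3 of 5 with 2.53%.

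The bodies of VARS1, FARSA, SARS2 and MARS1 were the most covered by Pol II. VARS1 had 9 Pol II peaks over 22.7% of its body, of which 1 lay more than 1 kb from any transcript start. FARSA had 6 peaks over 18.5%, 4 of them that far from a start. SARS2 had 4 peaks over 13.0%, none that far from a start, and MARS1 had 10 over 12.3%, 5 of them that far. The most peaks were in CARS2 (16), AARS1 (15), CARS1 (15), YARS1 (14) and IARS1 (12), of which 7, 8, 8, 10 and 10 lay more than 1 kb from any start. In AARS1, 12 of the 15 were in the last part of the body, past its midpoint, as were 10 of 14 in YARS1 and 11 of 16 in CARS2.

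Several of these bodies contain another start. The body of MARS1 holds its own canonical promoter and the 5′ end of ARHGAP9, that of CARS2 holds its canonical promoter, with a Pol II fold of 113, and that of EARS2 the 5′ end of GGA2. In HARS1 the only body peak, with a fold of 54.1, lay at the 5′ end of DND1. Counted from 2 kb past the canonical start, Pol II was in 28 of 36 members, against 57.6% of coding genes, in 17 of 20 cytosolic and 11 of 16 mitochondrial bodies. The median cover was then 1.94% and 0.531%.

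Members without Pol II in the body were EPRS1, FARSB and QARS1 among the cytosolic genes and HARS2, PARS2, TARS2 and WARS2 among the mitochondrial. EPRS1 and FARSB are long genes, with bodies of 75931 and 87194 bp, and both had Pol II at the 5′ end. EPRS1 nevertheless had 7 Larp7, 8 Hexim1 and 7 Cdk9 peaks in its body, and WARS2 had 7, 8 and 4. QARS1, PARS2 (the mitochondrial proline enzyme) and HARS2 have short bodies of 7199, 5626 and 5876 bp. None of these 7 genes had a KAP1 peak in the body either.

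**Figure D3:**
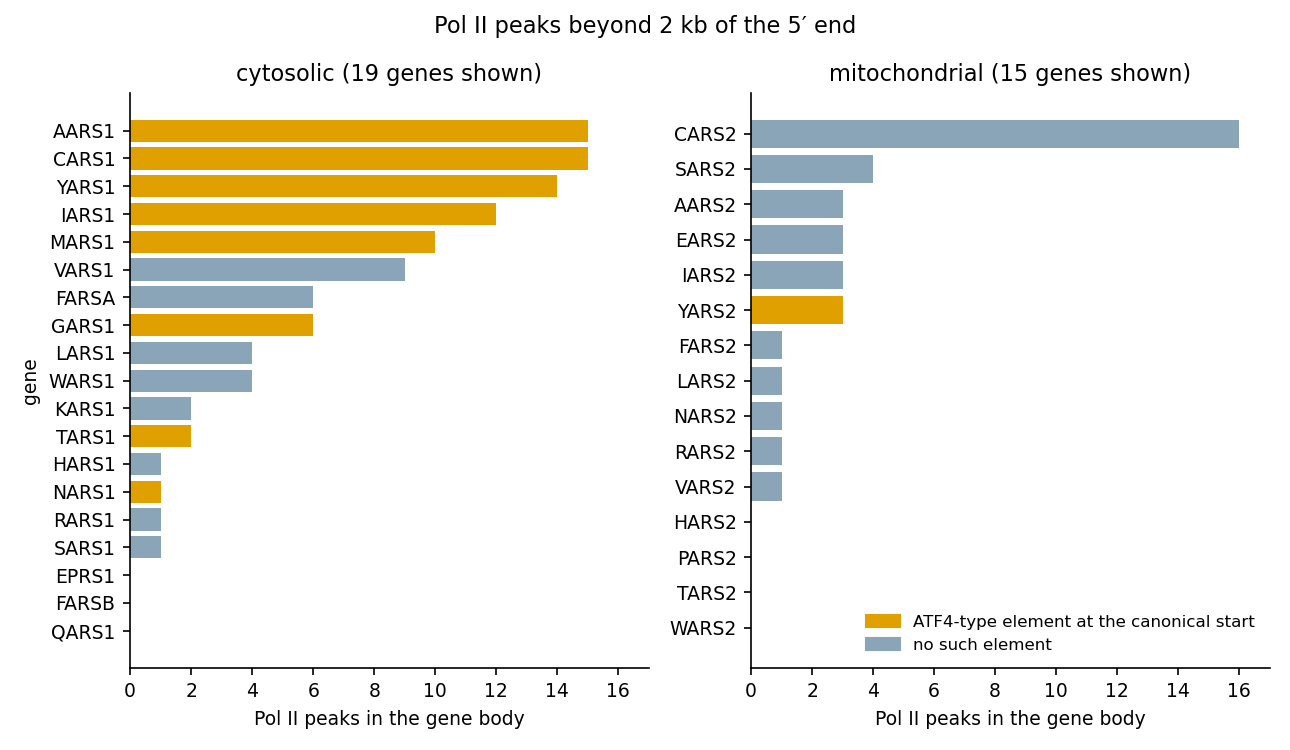
Number of Pol II peaks in the gene body (horizontal bars) of 19 cytosolic and 15 mitochondrial genes, coloured by whether the motif known for ATF4 lies at the canonical start. The 5 longest cytosolic bars, at 10 to 15 peaks, all have the motif, and the longest mitochondrial bar, CARS2 at 16, does not.

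The motif and the body peaks went together among the cytosolic genes. The 8 cytosolic genes with TGATGNAA at the canonical start had a median of 11 Pol II peaks in the body, and the 12 without it a median of 1.50. The values with the motif were 15 in AARS1, 15 in CARS1, 14 in YARS1, 12 in IARS1, 10 in MARS1, 6 in GARS1, 2 in TARS1 and 1 in NARS1, so the groups overlapped. Without it, VARS1 was highest at 9, followed by FARSA at 6. Restricted to peaks more than 1 kb from any transcript start, the medians were 6.50 and 1.00. Genes with the motif were longer, with a median of 42.5 kb against 28.6 kb, and the part of length in this difference was not tested. The median share of the body covered was 5.20% and 0.964%. This share also varies with length: among other genes with Pol II its median was 6.65% from 4 to 20 kb and 0.657% from 50 to 100 kb. This relation was noticed in these data. It did not extend to other coding genes with Pol II. Their median number of body peaks was 1.00 with the motif and 2.00 without it, and their median cover 0.841% and 1.04%. Of 155 with the motif and a body to count, 69.0% had a Pol II peak there, and of 12531 without it, 69.7%. The cytosolic genes with any body peak were 8 of 8 with the motif and 9 of 12 without it.

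Past the 3′ end Pol II was listed at a larger share of the cytosolic genes, with overlapping intervals and no test. This zone was not among the 17 results run under other settings, so it was not counted on the stricter peak lists. Within 5 kb downstream, Pol II was listed at 17 of 20 cytosolic genes (85.0%, interval 62.1 to 96.8) and at 7 of 16 mitochondrial genes (43.8%, interval 19.8 to 70.1). The background was 41.2% of coding genes and 48.2% of those with Pol II at the 5′ end. With peaks within 1 kb of any transcript start removed, the counts were 16 of 20 and 5 of 16, against 28.3%. EPRS1, FARSB and LARS1 had no Pol II peak in this zone, and both peaks of VARS1 lay within 1 kb of a start. With peaks near starts kept, all 8 cytosolic genes with TGATGNAA had a peak there, as did 9 of the 12 without it. Among other coding genes with Pol II the order was the reverse, at 39.4% with the motif and 48.3% without it.

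Other antibodies differed less past the 3′ end. Cdk9 was at 13 of 20 cytosolic and 6 of 16 mitochondrial genes (background 42.1%), Larp7 at 13 and 9 (55.5%), Hexim1 at 16 and 13 (63.2%), and KAP1 at 7 and 4 (28.8%). WARS1 had 5 Pol II peaks in this zone, YARS1 and MARS1 had 4 each, and CARS2 and SARS2 had 5 each, the highest values among the mitochondrial genes.

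**Figure D4:**
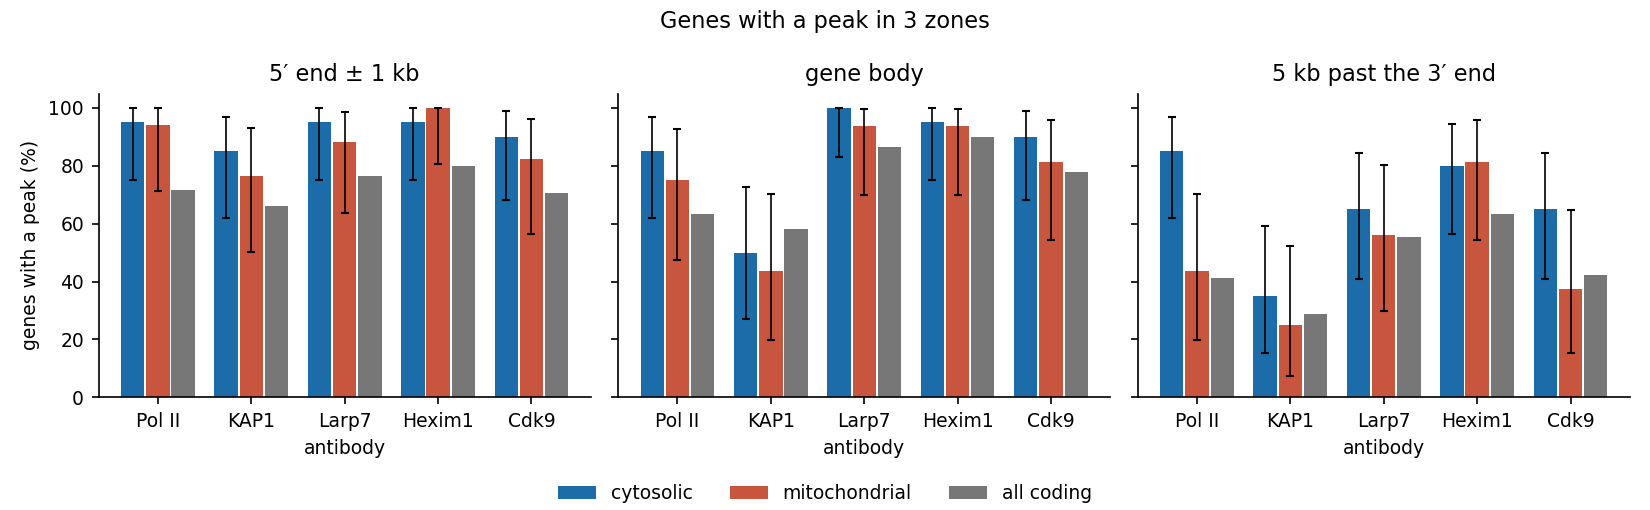
Share of genes with a peak (bars from 0, percent) at the annotated 5′ end, in the body and within 5 kb past the 3′ end, for cytosolic, mitochondrial and all coding genes and each antibody. Error bars are exact 95% binomial intervals. The widest gap between the classes is that of Pol II past the 3′ end, 85.0% against 43.8%, where the intervals overlap.

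Pairs of enzymes for the same amino acid, 14 in number, allowed the classes to be set side by side. The threonine pair had no Pol II fold to compare, since TARS2 had no peak. The methionine pair had no body to compare, since MARS2 was too short. The 13 pairs counted for Pol II fold and for the body are therefore not the same set. Pol II fold at the annotated 5′ end was higher in the mitochondrial gene in 8 of 13 pairs, higher in the cytosolic gene in 4 and equal in the histidine pair, which shares its peak. At canonical starts the counts were 7, 5 and 1, and the methionine pair was the one that turned, with 57.0 in MARS1. The share of the body covered by Pol II was higher in the cytosolic gene in 10 of 13 pairs and in the mitochondrial gene in 3. The alanine pair shows this contrast: AARS2 had a fold of 155 at the 5′ end and 3 peaks over 5.96% of its body, while AARS1 had a fold of 106 and 15 peaks over 12%. In the valine pair, VARS2 had 111 at the 5′ end and 2.53% of its body covered, and VARS1 had 69.0 and 22.7%. The exceptions in the body included cysteine, with 9.52% in CARS2 and 6.58% in CARS1, and serine, with 13.0% in SARS2 and 0.755% in SARS1. For Larp7 the body cover was higher in the cytosolic gene in 6 pairs and in the mitochondrial in 7, and for Cdk9 in 7 and 6. Hexim1 was higher in the cytosolic gene in 8 pairs and in the mitochondrial in 5, and KAP1 in 4 and 6, with 3 equal.

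**Figure D5:**
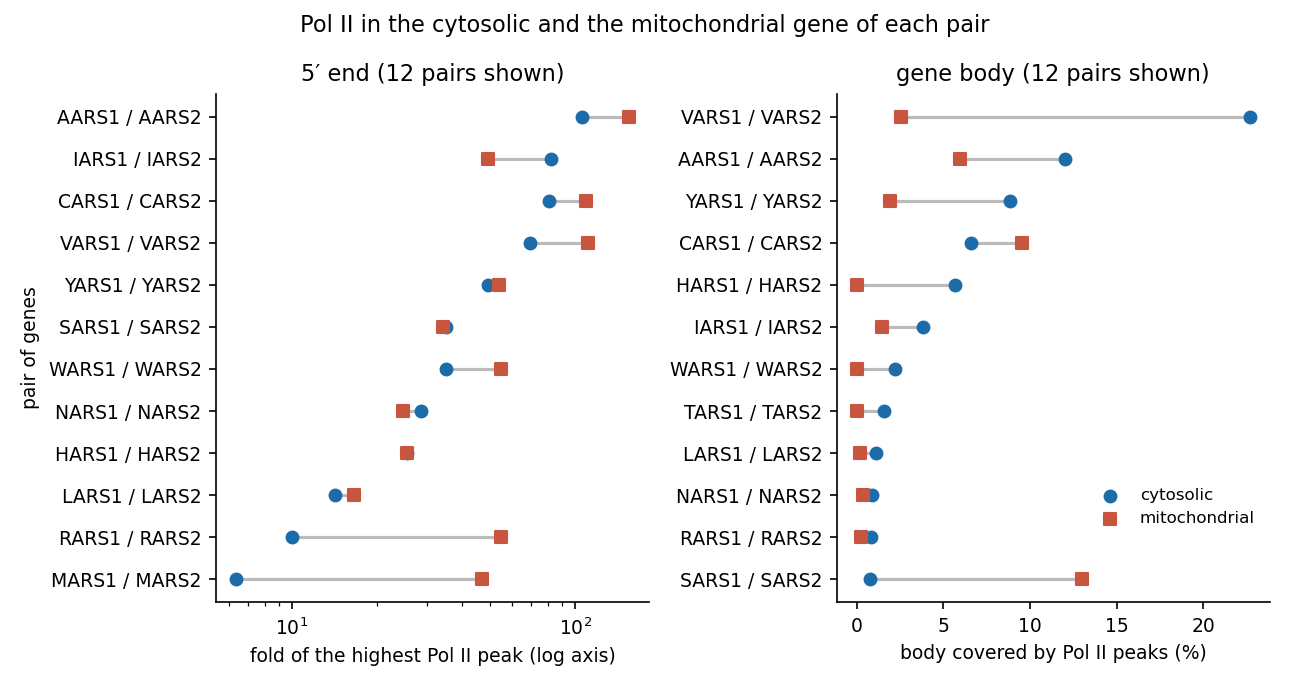
Pol II in pairs of cytosolic (circles) and mitochondrial (squares) enzymes for the same amino acid, with 12 of 13 comparable pairs shown in each panel. Left, fold at the annotated 5′ end on a log axis, without the threonine pair. Right, share of the gene body covered by peaks in percent, without the methionine pair. Squares lie to the right in 8 pairs at the 5′ end, and circles lie to the right in 10 pairs in the body.

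Other promoter motifs were also counted in the windows of 300 bases, on both strands. GCGCATGC, the motif of NRF1, a regulator of nuclear genes for mitochondria, was at the annotated 5′ end of 4 mitochondrial genes, CARS2, MARS2, VARS2 and YARS2, and of 0 of 20 cytosolic genes, against 3.64% of coding genes. At the canonical start it was in 3 mitochondrial genes, no longer in CARS2, and in 0 of 20 cytosolic genes, against 4.18%. CCAAT, the motif of NF-Y, was in 10 of 17 mitochondrial and 4 of 20 cytosolic windows at the annotated end, and in 10 and 9 at the canonical start, so its division of the classes depended on the start used. It was in 35.5% of all annotated windows. CACGTG, the E-box, was in 4 members (all genes 8.19%), and TATAAA, the TATA box, in FARSA alone (all genes 11%).

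Genes that work beside the synthetases were mostly occupied by Pol II, and their other values varied by group. These groups were counted at the annotated 5′ end only. A gene named as lacking Pol II may therefore hold it at another start, as GARS1 did. Over all coding genes, Pol II was at 71.8%, KAP1 at 66.2% and all 5 factors at 61.5%. Pol II was at all 9 genes of the complex scaffold and synthetase-like group and all 5 factors at 7, with AIMP2 at 109, DTD2 at 104 and TARS3 at 103 the highest in Pol II fold. The median Pol II percentile of this group was 80.5, against 57.8 in the synthetases. Pol II was at 35 of 37 matched genes of tRNA processing, all but ELP3 and QTRT2, with TRNT1, which adds the CCA end, at 134, PUS7 at 128 and RPP25 at 127. Among mitochondrial charging and translation factors Pol II was at 13 of 14, all but MTRF1. The highest were MTRFR at 125, MTFMT at 91.1 and GATC at 76.5. KAP1 and all 5 factors were each at 8 of these 14 (57.1%), below the shares over all coding genes. Among cytosolic elongation factors Pol II was at 8 of 9, all but EEF1A1, with EEF2 at 129, EEF1A2 at 126 and EEFSEC at 102. The median percentiles of the elongation factors were 76.5 in KAP1 and 69.8 in Larp7, against 23.9 and 22.3 in the synthetases. Low medians were not particular to the synthetases: the scaffold and synthetase-like group had 33.3 in KAP1 and 21.0 in Larp7. The mitochondrial factors had 41.4 and 34.6, and the tRNA processing genes 54.5 and 36.1.

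The amino acid response genes, many of them known targets of ATF4, had Pol II at 25 of 28 (89.3%, against 71.8% of coding genes). The highest folds were those of the amino acid transporters SLC1A5 (139), SLC38A2 (137) and SLC7A5 (134). The 3 without Pol II at the annotated 5′ end were ATF3, MTHFD2 and TRIB3, and their other starts were not counted. Their median Pol II percentile was 87.0, above the 57.8 of the synthetases, and their KAP1 median was 53.7 against 23.9. All 5 factors were at 21 of these 28 (75%), close to the 75.7% of the synthetase genes, against 61.5% of coding genes.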

How the data were processed

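The 5 lists hold peaks called by the authors, 1 list per library; the submitters' processing notes name Bowtie 1.1, MACS2 and the build hg19, per the labels. The labels state no pooling. The deposited columns used are the fold enrichment (a linear ratio), the −log10 p and the −log10 q of each peak. Pol II has 92939 deposited peaks of median width 287 bp, KAP1 61312 (513 bp), Larp7 184243 (471 bp), Hexim1 229679 (453 bp) and Cdk9 120115 (427 bp), of which 120113 were used. Depth is unknown, since the lists give no read counts, so a missing peak means only that none was listed. The control used in peak calling is not given in the sources used here, and the other 5 libraries of the series (Input, Ser5P Pol II and the histone marks H3K27ac, H3K4me1 and H3K4me3) were not used here.

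Genes and starts came from GENCODE 44 lifted to GRCh37, and sequences from the GRCh37 genome. A gene had a factor at its 5′ end when a peak overlapped the window of 1 kb on each side by 1 bp or more. The body left out the first 2 kb and was counted in genes 4 kb or longer. Motifs were searched in 250 bp before to 50 bp after the start. Overlap and coverage code was tested on simulated data. Python 3.11.15, pandas 2.3.3, NumPy 2.4.6, SciPy 1.17.1, pysam 0.24.0 and matplotlib 3.10.9 were used. Members, lists and alternatives were chosen with earlier results of these data known. Genes were named by a rule: those lacking a factor, of highest or lowest fold, with a divergent coding partner, or with most or no Pol II in the body. Sequences were printed for members with TGATGNAA at the canonical start and for the histidine pair. Alternatives covered stricter peak lists, other windows, other starts, other body limits and rank by −log10 p, and 17 with canonical starts were chosen after seeing the data. With 1 library per antibody, no paired analysis and no replicate test was made. Values of some members are not reported here and are left out of the plots that name genes; counts, shares and medians cover all members.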

Additional observations from a re-analysis of the deposited data

How the results depend on the processing

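Of 116 alternative values computed for 17 results, 92 stayed within the interval of the main value, 23 moved outside it and 1 changed sign. No difference was tested, so these labels describe size only. With peaks of −log10 q of at least 5, the 5′ end shares became 18.9% for KAP1, 29.7% for Larp7, 16.2% for Cdk9 and 8.11% for all 5 factors. The body shares became 63.9% in Pol II, 8.33% in KAP1, 41.7% in Larp7, 47.2% in Hexim1 and 5.56% in Cdk9, and the median body cover by Pol II 0.506%. The members were then below all coding genes in every body share but that of Pol II. When every list was cut to its 20000 peaks of greatest −log10 p, the 5′ end shares became 37.8% in KAP1, 24.3% in Larp7, 73.0% in Hexim1, 48.6% in Cdk9 and 16.2% with all 5. The body shares became 22.2% in Pol II, 22.2% in KAP1, 27.8% in Larp7, 22.2% in Hexim1 and 22.2% in Cdk9, and the median body cover 0%. The shares over all coding genes were then 27.6%, 31.4%, 34.6%, 35.7% and 32.5%, so the members turned from above to below them in Pol II, Larp7, Hexim1 and Cdk9. Both settings keep fewer peaks by construction. The difference of cytosolic minus mitochondrial genes with all 5 factors, 9.41 percentage points (interval -21.0 to 39.5), turned to -13.5 with the 20000 peaks. Hexim1 at the 5′ end became 100% at the start of any transcript and 100% at the canonical start, since the peaks of GARS1 were then counted. Pol II was more frequent in cytosolic bodies by 10.0 to 17.5 points at each setting run. The main difference of 10.0 points has an interval of -19.0 to 39.8, which spans both signs. These settings re-cut the same Pol II list over the same genes, so their shared order is not independent support. Depth is unknown, and the lists of KAP1 and Cdk9 hold few peaks past the stricter threshold (14.0% and 4.42%), which limits what their absence shows. No paired analysis was possible because each antibody has 1 library.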
